A study of Mus musculus with 9 samples.

Results

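Morulae sired by males treated with 10% ethanol were compared with morulae sired by males treated with 6% ethanol, as a comparison of the higher with the lower dose that does not use the control libraries in its test. The members are the 3 libraries whose treatment label is 10% EtOH and the 3 whose label is 6% EtOH, 6 of the 9 libraries of the study, with all 53819 gene rows of each count file. All embryos were C57BL/6J mouse embryos at the morula stage, made by in vitro fertilization with the Nakagata protocol and CARD media. The groups thus share fertilization and culture outside the female, and by their labels they differ in the treatment of the sire. The libraries also differ in depth and in the form of the count files, as given below. Each library is total RNA of whole embryos, sequenced after library construction by a commercial laboratory. The route and length of ethanol treatment, the number of sires and the number of embryos behind each library are not given in the sources used here. P-values measure only how these libraries scatter, in part perhaps for technical reasons. The remaining 3 libraries come from control sires and are quoted only as levels.

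A morula is the embryo between the early cleavage stages and the blastocyst. Its cells compact against each other through E-cadherin junctions, outer cells become polar and turn towards trophectoderm under Hippo signalling, Tead4 and Cdx2, and inner cells keep the pluripotency network of Pou5f1 and Nanog. Maternal messages have largely been degraded, the embryonic genome is active, ribosome production is high, and ATP still comes from mitochondria inherited from the oocyte. In female embryos the long noncoding RNA Xist coats the paternal X chromosome during these stages.

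The libraries of a group are called 1, 2 and 3, and values are given in that order. Total counts were 22746245, 6263465 and 10909921 in the 6% ethanol libraries and 19574710, 27619281 and 8282411 in the 10% ethanol libraries. In 6% ethanol 1, 10% ethanol 1 and 10% ethanol 2 the count column has a longer header, in which the aligner RNA STAR is named. These are the long-header libraries, and the other 3 ethanol libraries, whose header is shorter, are the short-header libraries. The long-header libraries were also the 3 with the highest totals, so header form and depth cannot be told apart, and both are unevenly spread over the doses: 1 of 3 libraries has a long header at 6% and 2 of 3 at 10%. Levels below are in CPM, counts of a gene relative to the library size, on library sizes scaled with TMM factors, which correct for a few genes taking a large share of the counts. The share of genes without a read also differed. Of the 11740 genes with enough counts to be tested, 1.42, 10.7 and 6.07 percent were at 0 counts in the 6% ethanol libraries, against 1.45, 1.75 and 2.71 percent in the 10% ethanol libraries.

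Across genes, which are not independent replicates, the Pearson correlation of log2(CPM + 1) had a median of 0.83 over the 6 pairs within a dose, and of 0.81 over the 9 pairs between doses. The 3 pairs within 10% ethanol ran from 0.85 to 0.92 and the 3 within 6% ethanol from 0.75 to 0.81. The 3 long-header libraries, which span both doses, correlated at 0.91 to 0.92 with each other. The library 6% ethanol 1 was thus closer to 10% ethanol 1 and 10% ethanol 2 than to the other 2 libraries of its own dose. No pair was a repeat of the same library: the lowest chi-square per degree of freedom between any pair of the 6 was 127.8.

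**Figure D1:**
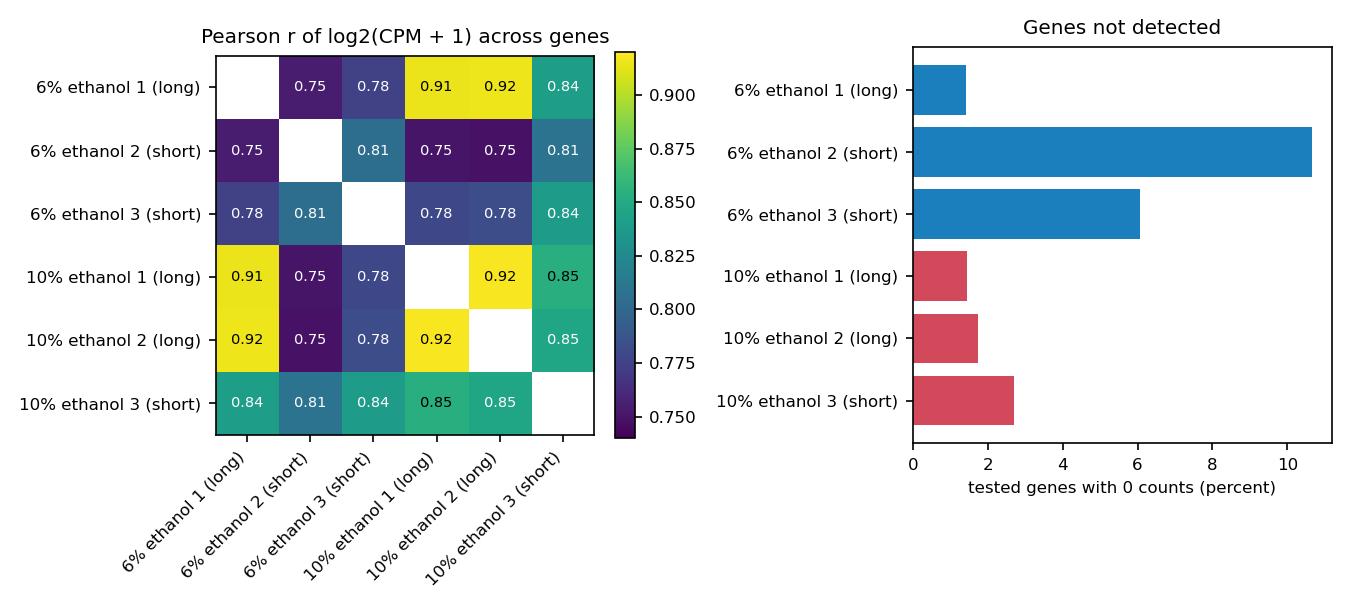
Left: Pearson correlation of log2(CPM + 1) across genes for each pair of the 6 ethanol libraries, with the header form of the count column in brackets. Right: percent of the 11740 tested genes with 0 counts in each library, blue for 6% and red for 10% ethanol; the 3 long-header libraries correlate at 0.91 to 0.92, and 6% ethanol 2 has the largest share of genes at 0, 10.7 percent.

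Marker genes were set beside the labelled stage, as a description. All 13 morula and early lineage markers had counts and were tested, though Sox2 was at 0 counts in 6% ethanol 3 and 10% ethanol 3. Cdh1 (E-cadherin) was at 408, 264 and 281 CPM in the 6% ethanol libraries and 410, 453 and 237 CPM in the 10% ethanol libraries. Fibroblast markers summed to 44.2, 16.6 and 45.6 CPM at 6% and to 20.9, 40.6 and 9.20 CPM at 10%. Most of that sum came from Pdgfra, while Col1a1 and Col1a2 were at 0 counts in all 6 libraries. Markers of sperm and testis summed to at most 3.51 CPM and those of blood to at most 2.61 CPM in any of the 6 libraries, and the protamine Prm2, the transition proteins Tnp1 and Tnp2, the adult globins Hbb-bs and Hbb-bt and the leukocyte antigen Ptprc were at 0 counts in all 6. Of the 13 cumulus and granulosa markers, Fshr, Inhba, Has2, Ptx3 and Cyp11a1 were at 0 counts in all 6 libraries. The sum of that list ran from 4.39 to 62.8 CPM at 6% and from 6.59 to 71.3 CPM at 10%, most of it from Amhr2, at 60.5 CPM in 6% ethanol 2 and 69.4 CPM in 10% ethanol 3. Because these are bulk libraries, fewer cells of a type and less RNA per cell cannot be told apart in any value that follows.

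No gene passed the test between the doses. With edgeR's quasi-likelihood test and Benjamini-Hochberg adjustment over the 11740 genes, 0 were called at an adjusted p under 0.05 (0 percent), and the smallest adjusted p was 0.858. An unadjusted p under 0.05 was reached by 516 genes (4.4 percent), 202 with higher levels at 10% (1.72 percent) and 314 with lower (2.67 percent), where 587 would fall under that threshold if no gene differed. DESeq2 called 18 of the 11321 genes it gave an adjusted p (0.159 percent), 8 higher and 10 lower, with 921 at an unadjusted p under 0.05, and limma voom called 0, with 1002. In 15 of the 18 genes the groups did not overlap. The spread behind this was wide. edgeR estimated a biological coefficient of variation of 0.88 in common to all genes, and log2 fold changes carried a median SE of 0.98. The 3 libraries of a dose lay wholly above or below the other 3 in 1134 genes (9.66 percent), higher at 10% in 706 (6.01 percent) and lower in 428 (3.65 percent). Of those 706 genes, 145 (20.5 percent) had 0 counts in 6% ethanol 2, as had 10.7 percent of all tested genes. Log2 fold changes over all tested genes had a median of -0.02, with 49.4 percent above 0 and 50.6 percent below.

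With edgeR's quasi-likelihood test, 2 of the other settings gave calls: 203 genes with no filter beyond 1 count, and 1 gene in the long-header libraries alone. Of the 203 genes, 152 were lower at 10%, and 148 were highest in 6% ethanol 2 or 6% ethanol 3. In 99 of them 1 library was at least 20 times the next or the only one with counts. Only in 20 of the 203 did the groups not overlap. The smallest adjusted p of edgeR's quasi-likelihood test in that fit was 5.2e-27, for Stk4, whose groups overlapped. A fit to all 9 libraries called 0, with 665 genes at an unadjusted p under 0.05, and a fit with the header form as a term called 0, with 351. Leaving out 6% ethanol 1, the long-header library of the lower dose, also gave 0 called genes, but 2128 at an unadjusted p under 0.05 and a smallest adjusted p of 0.125 in edgeR's quasi-likelihood test. The 2 groups that remain in that fit are 2 short-header libraries against 1 short-header and 2 long-header libraries.

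Of the genes that were higher in every 10% than in every 6% ethanol library, with a mean of 10 CPM or more in a group, the 12 of smallest p were C77080, Celsr1, Raly, Gpx4, Tubg1, Usp10, Tmem191c, Rtn2, Rn18s, Csk, Mrpl4 and Gsdma. In the fit to the 11740 genes, each had an adjusted p of 0.858 by edgeR's quasi-likelihood test, so none is a called difference there. DESeq2 called Celsr1, Rtn2 and Tmem191c at adjusted p of 0.0141, 0.0302 and 0.0388. With no filter beyond 1 count, edgeR's quasi-likelihood test called Rn18s, Tubg1, C77080 and Gpx4, at adjusted p of 2.3e-10, 0.00013, 0.025 and 0.028. Since the 12 genes were taken for groups that do not overlap, their separation is a description.

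Usp10, a deubiquitinase that acts on p53 and in stress granules, was at 271, 222 and 233 CPM in the 6% ethanol libraries and at 550, 591 and 722 CPM in the 10% ethanol libraries. The groups stood well apart against a narrow spread, with a log2 fold change of 1.36 (SE 0.39). Controls were at 299, 518 and 924 CPM, so the 6% libraries were the lowest 3 of all 9. Tmem191c, a transmembrane protein gene, was at 6.03, 2.85 and 2.85 CPM at 6% and at 22.8, 31.2 and 29.2 CPM at 10%. Its libraries were also tight within each dose, and its log2 fold change was 2.81 (SE 0.82).

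Gpx4, the glutathione peroxidase that reduces lipid hydroperoxides, was at 88.8, 205 and 297 CPM at 6% ethanol. It was at 621, 551 and 1299 CPM at 10% ethanol and at 1105, 569 and 2809 CPM in the controls. The log2 fold change was 2.06 (SE 0.57), and within each dose the short-header libraries were above the long-header ones. Ftl1, the ferritin light chain that stores iron, was likewise apart, at 78.8, 96.5 and 32.8 CPM against 173, 191 and 187 CPM, a log2 fold change of 1.41 (SE 0.53). Celsr1, a cadherin of planar cell polarity, was under 1 CPM in all 3 libraries of 6% ethanol, at 0.591, 0.381 and 0.219. It was at 4.22, 36.8 and 4.88 CPM at 10%, and at 10.8, 8.39 and 5.7 CPM in the controls, so that the 6% libraries were the lowest 3 of all 9. Its log2 fold change of 5.21 (SE 1.37) is fed most by 10% ethanol 2.

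In Tubg1 and Rn18s a single library was far above the other 10% libraries. Tubg1, the gamma-tubulin that nucleates microtubules, was at 5.99, 1.14 and 3.95 CPM at 6% and at 246, 12.7 and 16.4 CPM at 10%, so 10% ethanol 1 stood far above the rest. Rn18s, the row for 18S ribosomal RNA, was at 578, 709 and 280 CPM against 19589, 1049 and 1081 CPM. That high value belongs to the same library, 10% ethanol 1, and the step that removes ribosomal RNA is not described in the labels. C77080 was at 26.6, 17.7 and 34.9 CPM against 63.6, 297 and 141 CPM. Csk, the kinase that switches off Src family kinases, was at 14.5, 3.81 and 13.5 CPM against 53.2, 33.9 and 123 CPM, with its highest value in 10% ethanol 3.

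**Figure D2:**
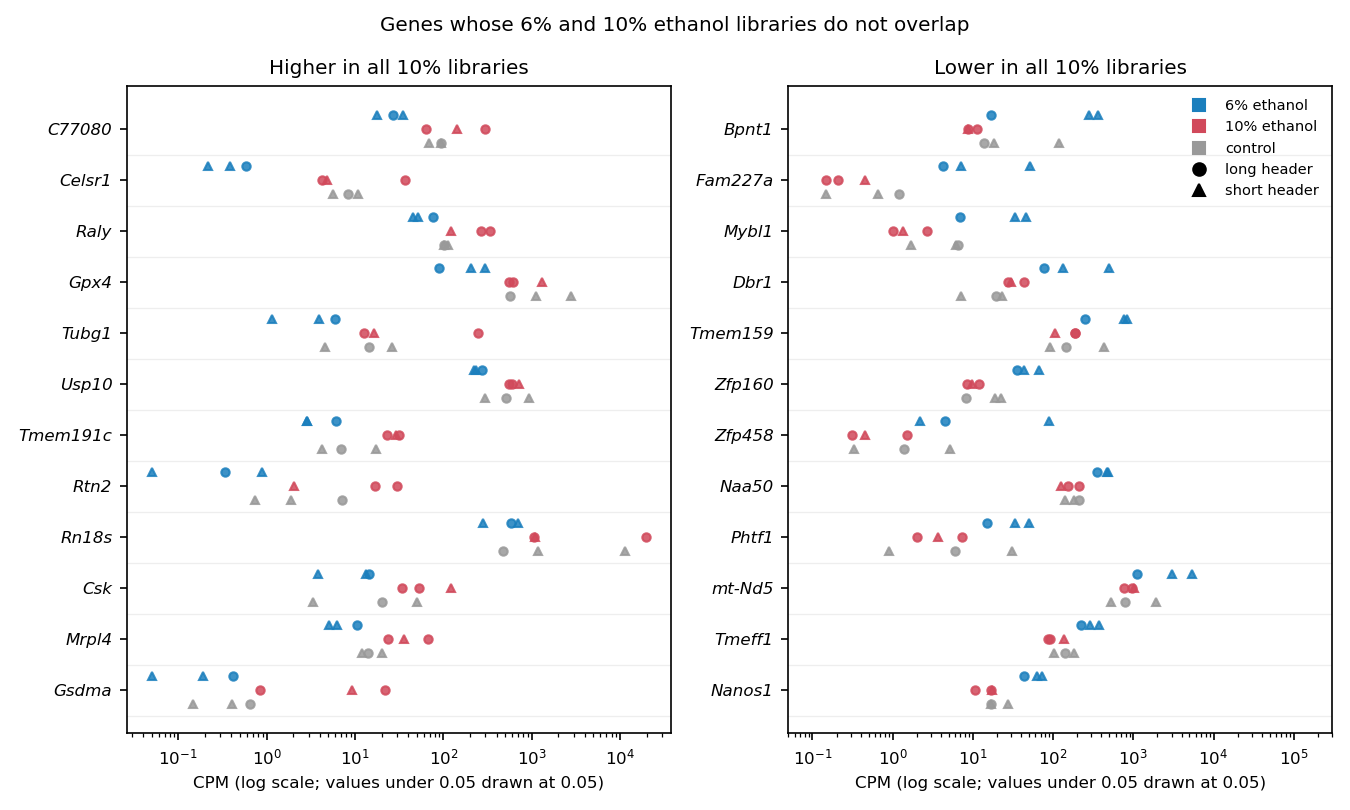
CPM on a log axis, 1 point per library, for the 12 genes higher in all 10% libraries (left) and the 12 lower in all (right) that had the smallest p; blue is 6%, red 10% and grey control, circles are long-header and triangles short-header libraries. Blue and red points do not overlap in any row, which is how the genes were taken, and the red points are tighter than the blue ones in genes such as Bpnt1 and Zfp160.

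In the other direction, the 12 genes of smallest p that were lower in every 10% ethanol library were Bpnt1, Fam227a, Mybl1, Dbr1, Tmem159, Zfp160, Zfp458, Naa50, Phtf1, mt-Nd5, Tmeff1 and Nanos1. Each again had an adjusted p of 0.858 by edgeR's quasi-likelihood test in the fit to the 11740 genes. DESeq2 called Fam227a, Bpnt1 and Mybl1 at adjusted p of 0.000286, 0.00297 and 0.00922. With no filter beyond 1 count, edgeR's quasi-likelihood test called Bpnt1, Zfp458, Dbr1, Fam227a and mt-Nd5. Their adjusted p in that fit was 1.0e-06, 0.0049, 0.0055, 0.0058 and 0.034. In 18 of all 24 genes (75 percent) the mean log2(CPM + 1) of the controls was nearer to the 10% than to the 6% ethanol libraries. The same held for 58.9 percent of all tested genes and 64.1 percent of those whose groups did not overlap. Among the latter it was 60.8 percent of the genes higher at 10% and 69.6 percent of those lower.

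Naa50, an N-terminal acetyltransferase, was at 349, 465 and 488 CPM in the 6% ethanol libraries and at 153, 211 and 124 CPM in the 10% ethanol libraries. Both groups were tight, and the log2 fold change was -1.41 (SE 0.43). The controls, at 140, 213 and 182 CPM, lay in the range of the 10% libraries or just beside it. Nanos1, a translational repressor of germ cells, was at 42.9, 72.9 and 63.1 CPM at 6% and at 10.6, 17 and 17.2 CPM at 10%, with a log2 fold change of -2 (SE 0.63). The controls were at 27.7, 16.8 and 16.8 CPM, so the 6% libraries were the highest 3 of all 9. The same order held for Zfp160, a zinc finger protein gene, at 35.9, 43.2 and 67.1 CPM against 8.54, 11.9 and 9.77 CPM, and 19.1, 8.17 and 22.2 CPM in the controls. Its log2 fold change was -2.27 (SE 0.67). Tmeff1, a membrane protein with follistatin-like modules, was at 221, 285 and 374 CPM against 91.3, 85.7 and 136 CPM, and its log2 fold change was -1.49 (SE 0.46).

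A second pattern among the lower genes was a gradient within the 6% ethanol libraries, with the long-header library close to the 10% values and both short-header libraries far above them. Bpnt1, a phosphatase of bisphosphorylated nucleotides, was at 17, 280 and 368 CPM at 6% and at 8.59, 11.3 and 8.63 CPM at 10%. Mybl1, the meiotic transcription factor A-Myb, was at 6.83, 45.5 and 33.5 CPM against 2.71, 1.02 and 1.36 CPM. Tmem159, a lipid droplet protein gene, was at 249.5, 833 and 768 CPM against 185.5, 185.1 and 106 CPM. In all 3 genes 6% ethanol 1 was the lowest of its dose and lay nearer to the 10% libraries than to its own. Dbr1, the enzyme that debranches intron lariats, was at 76.9, 132 and 497 CPM against 27.4, 43.5 and 29.8 CPM, with 6% ethanol 3 far above the rest. Zfp458 and Fam227a had their highest value in 6% ethanol 2, at 88.8 and 52.1 CPM, while no other library of the 6 exceeded 4.51 and 7.13 CPM.

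Some of the largest differences between the doses came from 1 library. A library was at least 20 times the next highest of the 6 in 24 tested genes for 6% ethanol 2 and in 14 for 6% ethanol 3, against 3 for 6% ethanol 1 and 2, 2 and 6 for the 10% ethanol libraries. Stk4, the Hippo pathway kinase Mst1, was at 231, 35 and 28233 CPM at 6% and at 62.3, 113 and 94.4 CPM at 10%. The groups overlapped, and the log2 fold change of -6.72 (SE 2.04) was set by 6% ethanol 3. Sugp1, a splicing factor gene, was at 6925 CPM in 6% ethanol 2 and at most 48.5 CPM in the other 5. In 6% ethanol 3, the neuronal nitric oxide synthase gene Nos1 reached 2129 CPM and the predicted gene Gm45902 reached 982 CPM. The kinase gene Map2k3 reached 759 CPM in 6% ethanol 2, and Mavs, the adaptor of RNA sensors at mitochondria, reached 725 CPM in 10% ethanol 2. Without 6% ethanol 2 the log2 fold changes of Sugp1 and Map2k3 changed sign, to 1.09 and 0.31, and without 6% ethanol 3 that of Nos1 did, to 1.41.

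Mitochondrially encoded mRNAs, which code for subunits of the respiratory chain and ATP synthase, were lower at 10% than at 6% ethanol in every gene that could be tested. All 13 have a row, and 11 passed the filter on low counts: mt-Nd4l and mt-Atp8 did not. With that filter, none of the 11 was called by edgeR's quasi-likelihood test and 6 had an unadjusted p under 0.05. The groups did not overlap in 3, mt-Nd5, mt-Co3 and mt-Atp6 (27.3 percent, beside 3.65 percent of all genes). With no filter beyond 1 count, the same test called mt-Nd4, mt-Nd1, mt-Cytb, mt-Nd2 and mt-Nd5. Their adjusted p in that fit was 0.00021, 0.0024, 0.0034, 0.011 and 0.034. Each was highest in 6% ethanol 3, and of these genes only mt-Nd5 had groups that did not overlap. The values behind the lower levels at 10% were uneven within the 6% group. The complex I subunit mt-Nd1 was at 2534, 10607 and 15408 CPM at 6% and at 1818, 1959 and 3107 CPM at 10%. The groups overlapped, because 6% ethanol 1 was below 10% ethanol 3, and the log2 fold change was -2.05 (SE 0.61). Cytochrome b, mt-Cytb, was at 1236, 5911 and 10882 CPM against 1213, 792.5 and 2288 CPM. Cytochrome oxidase subunit 1, mt-Co1, was at 1704, 6879 and 11928 CPM against 1565, 1549 and 6513 CPM. For both genes the 3 long-header libraries were close together whatever the dose, and all 3 short-header libraries were above them.

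The complex I subunit mt-Nd5 kept the doses apart, at 1119, 3046 and 5405 CPM against 951, 764 and 1027 CPM, with a log2 fold change of -1.80 (SE 0.55), though 6% ethanol 1 exceeded 10% ethanol 3 by little. Summed over the 13 genes, the level was 7513, 32961 and 52910 CPM at 6% and 6494, 5753 and 14695 CPM at 10%, with controls at 9217, 9572 and 18830 CPM. The groups overlapped, and the mean log2 difference of -1.53 had an exact two-sided permutation p of 0.2 (n = 3 per dose, where 0.1 is the smallest possible; adjusted over 47 lists, 0.723). The median log2 fold change of the list was -2.05, and it was -0.30 among the long-header libraries alone, while it was -2.07 among the short-header libraries alone. With 6% ethanol 2 and 3 both left out it was -0.07, and mt-Nd4, mt-Cytb and mt-Co1 turned positive, at 1.04, 0.21 and 0.91. The ribosomal RNAs of the same genome differed from each other. The small one, mt-Rnr1, was at 536, 1692 and 859 CPM at 6% and at 843, 409 and 468 CPM at 10%, highest in 6% ethanol 2, with a log2 fold change of -0.84 (SE 0.52) that was 0.22 in the long-header libraries alone. The large one, mt-Rnr2, was at 109480, 52955 and 71938 CPM at 6% and at 150230, 104230 and 106660 CPM at 10%, so that the 2 libraries with the highest mRNA sums had the lowest mt-Rnr2. The log2 fold change of mt-Rnr2 was 0.62 (SE 0.37). Counts of mt-Co2, mt-Co3, mt-Atp6 and mt-Nd3 are uncertain, since near-identical nuclear copies such as Gm10925 have rows of their own. Gm10925 held 137 to 708 counts in the ethanol libraries, beside 115 to 378 for mt-Atp6.

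**Figure D3:**
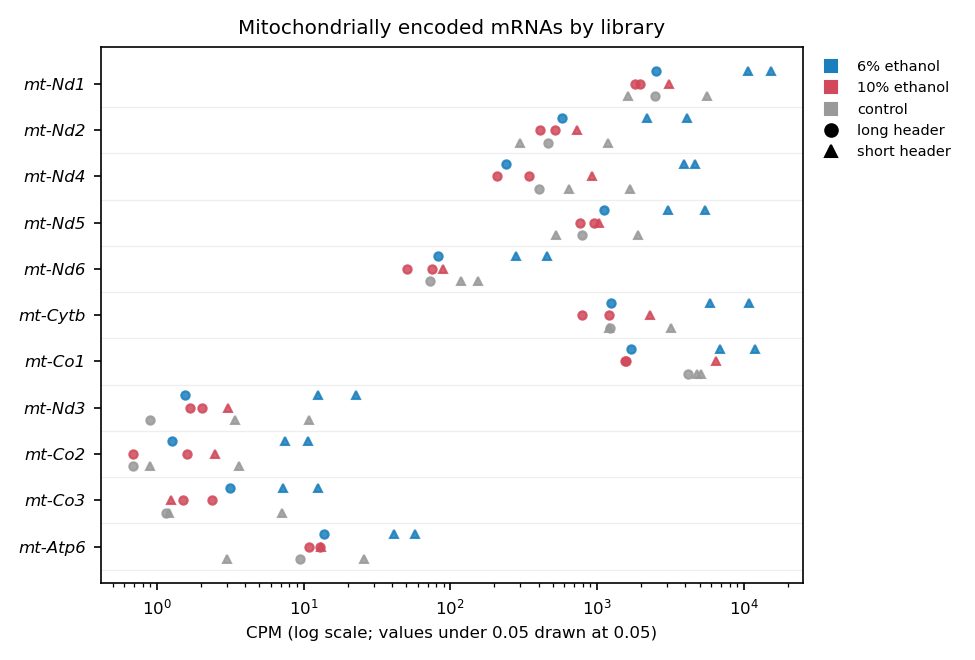
CPM on a log axis of the 11 tested mitochondrially encoded mRNAs, 1 point per library; blue is 6%, red 10% and grey control, circles are long-header and triangles short-header libraries. In mt-Nd1 the 2 blue triangles (6% ethanol 2 and 3, 10607 and 15408 CPM) stand to the right, while the blue circle (2534 CPM) lies among the red points.

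Nuclear genes of the respiratory chain did not share a uniform direction. Of 36 tested subunits and assembly factors of complex I, 23 were lower and 13 higher at 10% (63.9 percent lower, beside 50.6 percent of all genes), and the median of their log2 fold changes was -0.41. Without 6% ethanol 2 that median was 0.25. Of 43 genes of complexes II to V, 28 were lower and 15 higher, with a median of -0.40, and 0.03 without 6% ethanol 2. Genes with separated groups pointed both ways. Ndufa8, a complex I subunit, was at 22.1, 20.4 and 16.5 CPM at 6% and at 48.8, 60.9 and 46.8 CPM at 10%. Ndufb10, another, was at 73, 259 and 49.5 CPM against 26.1, 44.9 and 34.5 CPM. In complex III, Uqcr11 was higher at 10%, at 1.69, 2.66 and 0.658 CPM against 16.25, 4.92 and 12.8 CPM, and Uqcrb was lower, at 12.2, 40.7 and 64.7 CPM against 10.1, 8.16 and 12 CPM. Cox7a2l, which joins complexes III and IV, was at 68.4, 67.9 and 50.6 CPM against 128, 109.7 and 111 CPM. It was separated with a narrow spread, and its log2 fold change was 0.90 (SE 0.48).

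The mitochondrial ribosome, which translates the mitochondrial mRNAs, was balanced, with 40 of 77 tested genes higher and 37 lower at 10% and a median of 0.03, which was -0.01 with RLE size factors, 0.33 without 6% ethanol 2 and -0.03 without 6% ethanol 1. Its 7 members with all 10% libraries above all 6% libraries were 9.09 percent of the list, beside 6.01 percent of all genes. Mrpl4 was among them, at 10.5, 6.28 and 5.05 CPM against 66.9, 23.9 and 36.1 CPM, a log2 fold change of 2.53 (SE 0.76). Mrpl54 was at 26, 8.75 and 13.8 CPM against 69.5, 43 and 39.6 CPM. Mrpl1 was lower at 10%, at 126, 954 and 122 CPM against 73.3, 70.2 and 100.2 CPM, and Lonp1, the protease of the mitochondrial matrix, was at 185, 1089 and 388 CPM against 114, 177 and 172 CPM. Both had their highest value in 6% ethanol 2.

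Messages of the cytosolic ribosome were mostly lower at 10% than at 6% ethanol. With the filter on low counts, edgeR's quasi-likelihood test called no member. With no filter beyond 1 count it called Rpl31, Rps27 and Rps18, at adjusted p of 0.0049, 0.0085 and 0.037, each highest in 6% ethanol 2. In the large subunit 35 of 47 were lower (74.5 percent) with a median log2 fold change of -0.37, and in the small subunit 24 of 32 were lower (75 percent) with a median of -0.71. Groups did not overlap in 0 of 47 and 3 of 32, beside 3.65 percent of all genes. The sum over the large subunit was 17827, 42284 and 26837 CPM at 6% against 18937, 21449 and 25363 CPM at 10%. That over the small subunit was 12789, 35203 and 17712 CPM against 12973, 11111 and 16200 CPM. In both sums 6% ethanol 1 was within or below the 10% range, 6% ethanol 2 was the highest library, and the exact permutation p was 0.6 and 0.3. Without 6% ethanol 2 the medians were -0.07 and -0.10, and with 6% ethanol 2 and 3 both left out they were 0.31 and 0.15. In the long-header libraries alone they were 0.11, with 30 of 47 higher, and -0.05, with 12 of 32 higher. Rps20 was separated, at 315, 275 and 162 CPM against 96.5, 112 and 149 CPM, and unlike the sums it was highest in 6% ethanol 1. Rps21 was at 28.3, 87.1 and 44.8 CPM against 25.2, 13.6 and 23.9 CPM, highest in 6% ethanol 2. Counts of ribosomal protein genes are uncertain where pseudogenes share their reads.

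Other steps of translation had medians nearer to 0. Of 46 initiation and elongation factors, 28 were lower and 18 higher at 10%, with a median of -0.13, which was 0.06 with library totals alone, a scaling under which the median of all genes is 0.13. Eif5, which triggers GTP hydrolysis at start codon choice, was at 1599, 3517 and 3709 CPM at 6% and at 1561, 1593 and 1371 CPM at 10%, so that 6% ethanol 1 nearly met the 10% libraries. The 24 aminoacyl-tRNA synthetases and partners were split 12 to 12. Their summed level was 4127, 4751 and 4147 CPM against 3672, 4067 and 3711 CPM, which did not overlap, with an exact two-sided permutation p of 0.1, the smallest 3 against 3 can give (adjusted over 47 lists, 0.723). Tars, the threonyl-tRNA synthetase, was at 319, 978 and 283 CPM against 166, 206 and 263 CPM. The Hippo sum had the same p, but it was 2648, 2833 and 31977 CPM against 2134.5, 2295 and 2236 CPM, and the third value holds the Stk4 counts of 6% ethanol 3.

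Splicing factors and heterogeneous ribonucleoproteins held separated genes in both directions. Of 68 tested, 41 were lower and 27 higher at 10%, the median was -0.19, and 9 had an unadjusted p under 0.05 (13.2 percent, beside 4.4 percent of all genes). In 8 all 10% libraries were below all 6% libraries (11.8 percent, beside 3.65 percent of all genes) and in 5 above (7.35 percent, beside 6.01 percent). The list median was 0.20 in the long-header libraries alone, where 46 of 68 were higher, beside 0.11 for all genes. It was -0.48 in the short-header libraries alone, beside -0.14 for all genes. With 6% ethanol 2 and 3 both left out it was 0.23, beside 0.21 for all genes. Srsf10, a splicing regulator, was at 210, 219.6 and 211 CPM at 6% and at 128, 108 and 72 CPM at 10%. The 6% values agreed closely, in long-header and short-header libraries alike, and the log2 fold change was -1.05 (SE 0.45). The U1 component Snrpc was higher at 10%, at 993, 805 and 984 CPM against 1983, 1675 and 1521 CPM, a log2 fold change of 0.90 (SE 0.36). Snrpa, also of U1, was at 54.1, 28 and 32.4 CPM against 123, 69.1 and 91.5 CPM. Raly, an RNA-binding relative of hnRNP C, was at 76.5, 51.6 and 45.3 CPM against 337, 267 and 122 CPM. All 3 were thus higher in each 10% library, with 6% ethanol 1 the highest of its dose.

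Most genes of the unfolded protein and integrated stress responses had higher levels at 10% ethanol. Of 33 tested, 25 were higher (75.8 percent, beside 49.4 percent of all genes), with a median of 0.50, 0 called by edgeR's quasi-likelihood test and 0 at an unadjusted p under 0.05. The median was 0.27 among long-header and 0.37 among short-header libraries alone. With 6% ethanol 2 and 3 both left out it was -0.0023. The summed level was 4372, 2299 and 3024 CPM at 6% and 4826, 4921 and 3057 CPM at 10%, which overlapped, and controls reached 8204 CPM. In 3 genes the groups did not overlap, 9.09 percent of the list beside 6.01 percent of all genes in that direction. Atf6, the sensor that is cleaved under stress in the endoplasmic reticulum, was at 31.1, 13.7 and 36.6 CPM against 47.8, 50.2 and 48.4 CPM. Ddit3 (CHOP) was at 0.675, 0 and 0.878 CPM against 2.4, 8.45 and 1.25 CPM, and Ppp1r15a (GADD34) at 11.5, 0 and 9.76 CPM against 19.7, 91.6 and 17.2 CPM. Both are induced late in the integrated stress response, and both had 0 counts in 6% ethanol 2 and their highest value in 10% ethanol 2.

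The list of cytosolic heat shock chaperones, which also holds the mitochondrial Hspd1, had the opposite balance, with 18 of 28 lower at 10%. Its median was -0.41, against 0.09 in the long-header libraries alone. Hspa8, the constitutive chaperone with the highest level of that list, differed little, at 6138, 5011 and 6280 CPM against 6446, 7263 and 5780 CPM. Hspd1, the mitochondrial chaperonin, was at 370.4, 734 and 663 CPM against 248, 338 and 285 CPM. Stip1, the adaptor between Hsp70 and Hsp90, was at 612, 305 and 646 CPM against 737, 976 and 846 CPM. Hspa4l was at 3.29, 3.04 and 27.3 CPM against 1.35, 0.0728 and 0.795 CPM. Hspd1 and Hspa4l were thus lower in each 10% library and Stip1 was higher.

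Genes that handle alcohol, aldehydes and retinoids, and those of one-carbon metabolism, were taken for their link to ethanol. Of 20 tested in the first list (of 38), 11 were higher and 9 lower at 10%, with a median of 0.20, and Rarg, a retinoic acid receptor, was separated, at 15.9, 5.52 and 7.68 CPM against 34.6, 23.3 and 20.9 CPM. Of 32 one-carbon genes 15 were higher and 17 lower, with a median of -0.17, which was 0.07 without 6% ethanol 3, 0.01 without 10% ethanol 3 and 0.09 in the long-header libraries alone. Both directions had members whose groups did not overlap, 5 higher (15.6 percent, beside 6.01 percent of all genes) and 4 lower (12.5 percent, beside 3.65 percent). Gldc, which breaks down glycine in mitochondria, was at 3287, 2559.7 and 2778 CPM at 6% and at 3349, 4075 and 5073 CPM at 10%, with 6% ethanol 1 and 10% ethanol 1 almost equal. Methionine synthase, Mtr, was at 55.8, 47.9 and 45 CPM against 28.3, 27.7 and 21 CPM. It was separated with little spread in either dose, and its log2 fold change was -0.95 (SE 0.58). Mat2b, the regulatory subunit of methionine adenosyltransferase, was at 109, 527 and 177 CPM against 62.5, 88.3 and 58.2 CPM. The reduced folate carrier Slc19a1 was at 1.52, 0 and 0 CPM against 7.5, 2.22 and 22.2 CPM, so that both short-header libraries of 6% ethanol had no count. In nucleotide salvage, deoxycytidine kinase Dck was at 157, 282 and 117 CPM against 34.6, 85.2 and 62.6 CPM.

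Glycolysis was split 11 higher to 9 lower. Aldolase A, Aldoa, was at 104, 29.3 and 41.3 CPM at 6% and at 117, 165 and 132 CPM at 10%, and glucose-6-phosphate isomerase, Gpi1, was at 17.9, 6.47 and 3.4 CPM against 25.2, 24.2 and 21 CPM. In both, the long-header library of 6% ethanol was the closest of its dose to the 10% libraries. The p53 pathway had 18 of 26 lower with a median of -0.21 and no separated member, and apoptosis had 15 of 26 higher with a median of 0.13. Both medians changed sign with 1 library left out: the p53 median was 0.14 without 6% ethanol 1 and 0.14 without 10% ethanol 3, and the apoptosis median was -0.11 without 10% ethanol 1, -0.02 without 10% ethanol 3 and -0.32 in the long-header libraries alone.

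DNA methylation and demethylation genes had the highest median of the 41 pathway lists, 0.63, with 17 of 24 higher at 10% (70.8 percent, beside 49.4 percent of all genes). None was called by edgeR's quasi-likelihood test, and the median was -0.04 in the long-header libraries alone and 0.90 in the short-header libraries alone. The summed level went the other way, at 2748, 4504 and 5084 CPM against 3242, 3071 and 2512 CPM. In 4 of the 24 all 10% libraries were above all 6% libraries (16.7 percent, beside 6.01 percent of all genes). Mbd2, a reader of methylated CpG, was at 0.675, 0.381 and 0.329 CPM at 6% and at 6.72, 5.83 and 8.07 CPM at 10%. Controls were between, at 2.2, 2.63 and 2.34 CPM, and none of the 3 groups overlapped another. The 6% values lie near the floor and rest on few reads, so the spread within that group is poorly known. Its log2 fold change was 3.84 (SE 1.16), with an adjusted p of 0.858 by edgeR's quasi-likelihood test. The readers of unmethylated CpG Cxxc1 and Kdm2b were also separated. Cxxc1 was at 7.63, 3.81 and 23.6 CPM against 29.4, 58.5 and 64.8 CPM, and Kdm2b at 39.5, 5.33 and 49.5 CPM against 70.2, 97.9 and 85.8 CPM. The de novo methyltransferase Dnmt3a was at 17, 20.7 and 16.8 CPM against 27.1, 26.95 and 33.5 CPM, a small and even difference with a log2 fold change of 0.68 (SE 0.65).

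Of 48 histone methyltransferases and demethylases 22 were higher and 26 lower, and Kdm7a, a demethylase, was separated, at 112, 388 and 184 CPM against 79.8, 101 and 61.2 CPM. The arginine methyltransferase Prmt1 was higher in each 10% library, at 344, 193 and 276 CPM against 401, 719 and 409 CPM. Of 50 chromatin remodelers and deacetylases 31 were higher, with a median of 0.26. The testis bromodomain gene Brdt was lower, at 4.18, 14.3 and 7.13 CPM against 1.46, 1.02 and 1.70 CPM, and controls were at 9.93, 9.25 and 35.1 CPM. H3f3a, which codes for the replacement histone H3.3, was at 908, 3701 and 1951 CPM against 920.4, 755 and 946 CPM, so among the ethanol libraries it was highest in the 2 short-header libraries of 6% ethanol. Controls were at 816, 581 and 1949 CPM for H3f3a, the last as high as 6% ethanol 3.

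**Figure D4:**
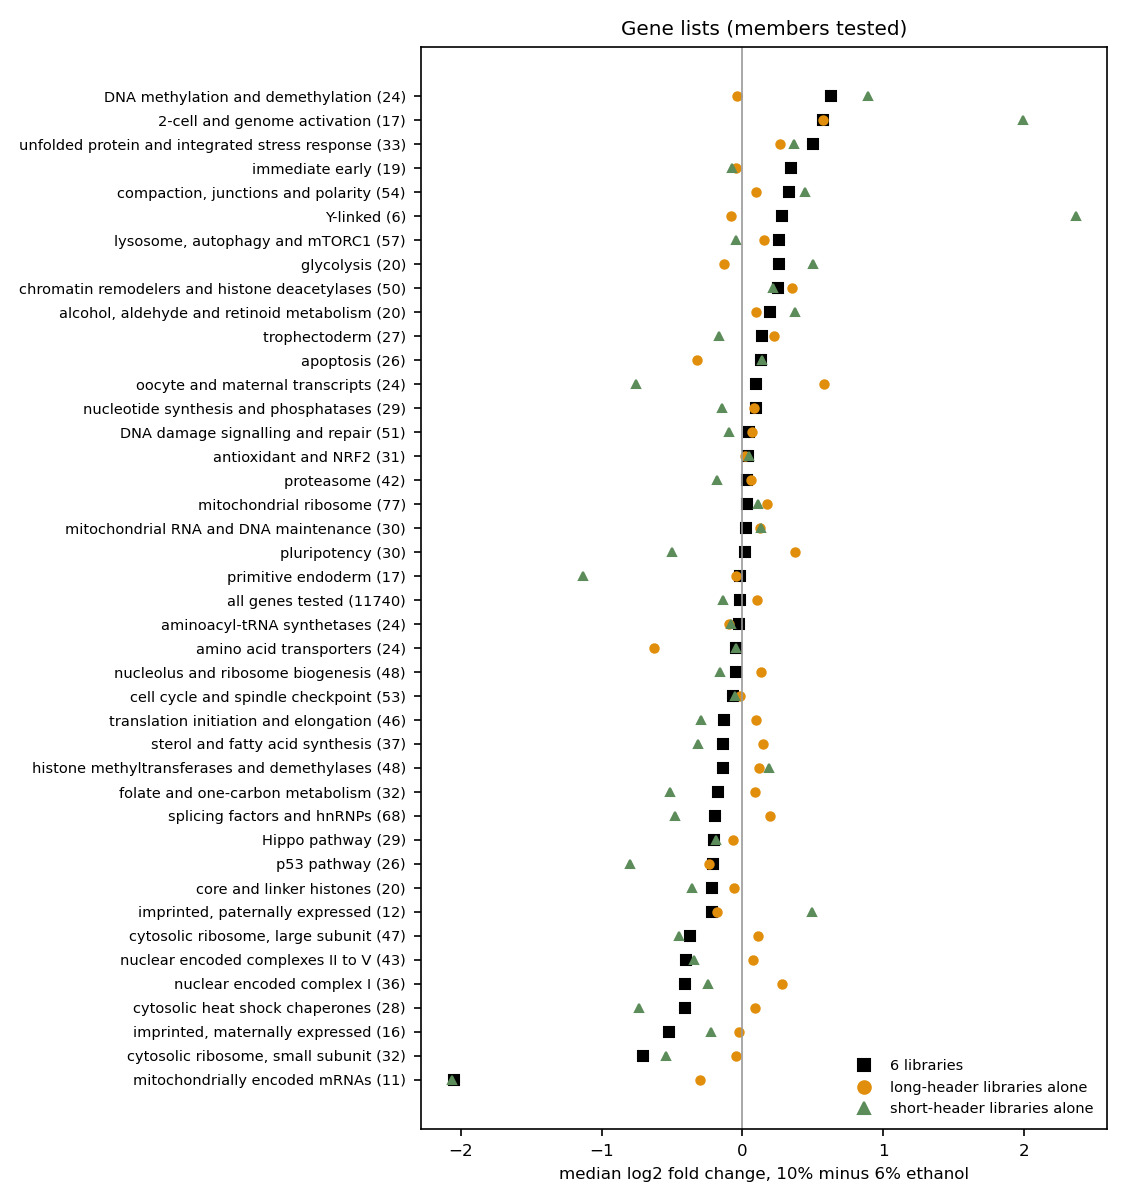
Median log2 fold change (10% minus 6% ethanol) of each gene list, with the number of members tested in brackets: black squares for all 6 libraries, orange circles for the long-header libraries alone, green triangles for the short-header libraries alone. The mitochondrially encoded list is at -2.05, -0.30 and -2.07, and the small ribosomal subunit at -0.71, -0.05 and -0.54.

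Genes of the first lineage choice did not show a shared direction by dose. Of 30 pluripotency genes 16 were higher and 14 lower with a median of 0.02 (-0.0036 with RLE size factors), and of 27 trophectoderm genes 17 were higher and 10 lower with a median of 0.14. The trophectoderm median was -0.22 without 10% ethanol 2, 0.80 without 6% ethanol 1 and -0.20 with the header form as a term. Pou5f1, the core pluripotency factor Oct4, was at 50.03, 48.9 and 33.4 CPM at 6% and at 72.6, 61.6 and 57.6 CPM at 10%. The groups did not overlap but were close, with a log2 fold change of 0.54 (SE 0.54). Sall4, its partner, was at 648, 511 and 405 CPM against 720.2, 868 and 653 CPM, and Stat3, the effector of LIF, at 13.5, 19 and 17.4 CPM against 28.7, 27.3 and 41.9 CPM. Zscan10 was lower in each 10% library, at 12.3, 2.66 and 8.78 CPM against 1.88, 1.24 and 1.14 CPM. Nanog was at 174, 38.1 and 17.7 CPM against 99.3, 189 and 24.5 CPM, high in the long-header and low in the short-header libraries of both doses. The controls went the other way, at 199, 42.2 and 66.5 CPM, where the second is the long-header library. Dppa4 was highest in 6% ethanol 2 and 3, as the mitochondrial mRNA sums were, and lowest in 6% ethanol 1, at 89.3, 720.5 and 983 CPM against 165, 114 and 227 CPM. Its log2 fold change of -1.82 (SE 0.75) was 0.64 in the long-header libraries alone.

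The trophectoderm factor Cdx2 was at 85, 10.7 and 159 CPM at 6% and at 134, 126 and 11.2 CPM at 10%, so the lowest library of each dose was about equal. Gata3, which acts beside Cdx2, was at 282, 165 and 5.49 CPM against 256.3, 396 and 116 CPM. Tfap2c was at 212, 31.2 and 100.3 CPM against 326, 334 and 134 CPM, overlapping in 1 library, with a log2 fold change of 1.21 (SE 0.70). Tead4, the partner of the Hippo effector Yap1, was at 140.3, 186 and 111 CPM against 203, 169 and 162 CPM. Gata6 of the primitive endoderm was at 1115, 1459 and 941 CPM against 1065, 1141 and 536 CPM. In all 5 genes the groups overlapped. Among 54 compaction, junction and polarity genes 37 were higher (68.5 percent, beside 49.4 percent of all genes) with a median of 0.33. It was 0.09 in the long-header libraries alone, and -0.17 with 6% ethanol 2 and 3 both left out. Efhd2, an actin-binding protein of that list, was separated, at 19.15, 10.1 and 7.02 CPM against 52.4, 20.1 and 45.8 CPM.

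Of 57 oocyte and maternal transcripts 24 were tested, 13 higher and 11 lower at 10%. The 8 oocyte markers summed to 17.9, 5.9 and 14 CPM at 6% and to 44.7, 10.7 and 35.9 CPM at 10%, with controls at 8.14, 9.86 and 10.1 CPM. The groups overlapped through 10% ethanol 2, and the exact permutation p was 0.3. Of these 8 markers 6 were tested, 5 higher and 1 lower, with a median log2 fold change of 1.32. Nlrp5, a maternal protein needed past the first cleavage, was the member with separated groups, at 0.591, 0 and 0.219 CPM against 14.2, 1.64 and 8.29 CPM. Its log2 fold change was 4.71 (SE 1.52), and the part of remaining oocyte RNA in it was not tested.

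Xist differed more by header form than by dose among the ethanol libraries. It was at 13.5, 688 and 1648 CPM at 6% and at 3.59, 11.5 and 448 CPM at 10%, with controls at 298, 137 and 594 CPM. The 3 long-header libraries of ethanol sires were all at or under 13.5 CPM and the 3 short-header ones at or over 448 CPM, while the long-header control was at 137 CPM. The log2 fold change of -2.34 (SE 1.71) became 3.51 with 6% ethanol 2 and 3 both left out. The Y-linked helicase gene Ddx3y was at 31.4, 147 and 38.3 CPM against 24.1, 24.7 and 30.6 CPM, and Eif2s3y, a Y-linked translation factor, at 17.2, 49.3 and 28.9 CPM against 15.99, 16.5 and 24.7 CPM. Y-linked counts were present in every library. Ddx3y was at 147, 38.3 and 30.6 CPM in the 3 short-header libraries and at 31.4, 24.1 and 24.7 CPM in the 3 long-header ones. Whether the number of female and male embryos differed between libraries was not tested.

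**Figure D5:**
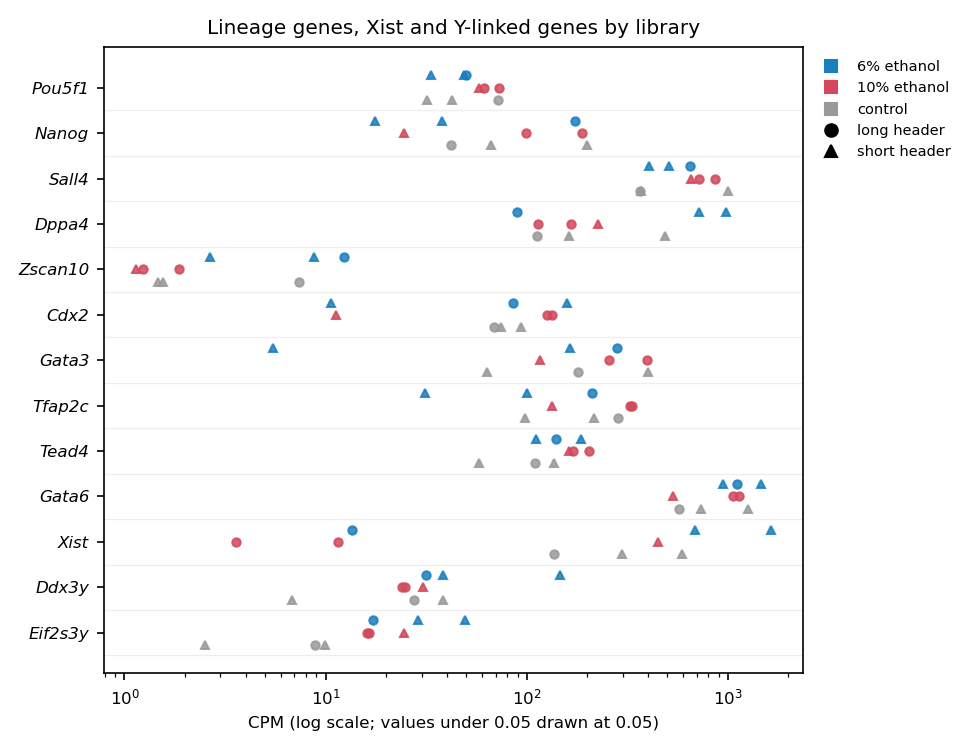
CPM on a log axis of pluripotency, trophectoderm and primitive endoderm genes, Xist and 2 Y-linked genes, 1 point per library; blue is 6%, red 10% and grey control, circles are long-header and triangles short-header libraries. Xist spans 3.59 to 1648 CPM and is lowest in the 3 circles of ethanol sires.

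Among the remaining pathway lists, medians lay between -0.52 (16 maternally expressed imprinted genes, 10 lower) and 0.57 (17 genes of the 2-cell stage and genome activation, 11 higher). The first was 0.13 without 6% ethanol 3. The second was -0.57 without 10% ethanol 3 and 1.99 in the short-header libraries alone. Of the 41 pathway lists, 26 had a median that changed sign when 1 library was left out. Lysosome, autophagy and mTORC1 genes were higher in 38 of 57 (66.7 percent, beside 49.4 percent of all genes) with a median of 0.26. That median was -0.05 in the short-header libraries alone, beside -0.14 for all genes. With 6% ethanol 2 and 3 both left out it was 0.05, beside 0.21 for all genes. Cell cycle genes (53 tested, median -0.06), DNA repair (51, 0.04), proteasome (42, 0.04) and nucleolus and ribosome biogenesis (48, -0.04) were near the median of all genes, and with library totals alone the cell cycle and nucleolus medians were 0.10 and 0.13. Of 24 amino acid transporters 11 were higher and 13 lower, and Slc7a2, a carrier of basic amino acids, was separated, at 22.9, 40.5 and 18 CPM against 8.8, 8.49 and 7.84 CPM.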

How the data were processed

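Each deposited file held raw read counts per gene of 1 library, made by the authors with featureCounts on the build GRCm39, per the submitters' processing notes, which also name DESeq2. In 4 of the 9 files the header names RNA STAR, per the file headers; the other aligners, the annotation, the versions and the strand setting are not given in the sources used here, so overlapping and antisense genes carry uncertain counts. All files list the same 53819 rows, 1442 of them with an Ensembl identifier only. No row is a total.

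Libraries were scaled with TMM factors over all 9, and genes were kept with filterByExpr by group on the 6 ethanol libraries. edgeR's quasi-likelihood test (glmQLFTest) gave 10% minus 6% ethanol, with Benjamini-Hochberg adjustment over 11740 genes and a threshold of 0.05. Each standard error is the size of the log2 fold change divided by the root of its F value. Sums over lists were compared with exact two-sided permutation tests. The code was tested on simulated data. Software was DESeq2 1.42.0, limma 3.58.1 and edgeR 4.0.16 in R 4.3.3, and matplotlib 3.10.9.

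The comparison, the 41 gene lists and the 6 marker lists were chosen with earlier results of these data known. Genes named singly were the 12 higher and 12 lower of smallest p among those whose groups did not overlap, with a mean of 10 CPM or more and a symbol that is not predicted; of each list, the 2 members of smallest p and that of highest mean; all mitochondrial, pluripotency, trophectoderm and Y-linked genes and Xist; and 6 genes high in 1 library, at least 20 times the next. Rps20, Rps21, Ppp1r15a, Atf6, Snrpc, Snrpa, Srsf10, Dnmt3a, Kdm2b, Brdt, Mrpl54, Cox7a2l, Stip1, Gpi1, Mtr, Prmt1, mt-Rnr1 and mt-Rnr2 lie outside that rule and were chosen after their values were seen, as were the marker genes with values. Rpl31, Rps27, Rps18, Gm10925 and Gm28884 also lie outside the rule and were likewise chosen after their values were seen. Alternatives changed the scaling, filter, tool, libraries, depth and threshold. No coordinates or sequences are given, because the reference used here is of another build. The result of 1 gene is not reported here.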

Additional observations from a re-analysis of the deposited data

How the results depend on the processing

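No paired analysis was possible because replicate numbers follow accession order only and pair no libraries. The number of called genes was 0 in all fits run except with no filter beyond 1 count (203, of which 99 were high in 1 library alone), with DESeq2 (18) and in the long-header libraries alone (1, the predicted gene Gm28884). Leaving out any 1 library gave 0. The alternatives without both 6% ethanol 2 and 3, with libraries thinned to 6263465 counts, and without Rn18s, mt-Rnr1 and mt-Rnr2 were chosen after seeing the data, and each gave 0. With library totals alone the median of all genes moved from -0.02 to 0.13. The mitochondrially encoded median was -0.30 in the long-header libraries alone and -0.070 without both 6% ethanol 2 and 3. The large ribosomal subunit was at 0.11 in the long-header libraries alone and 0.31 without both. The small subunit was at -0.048 in the long-header libraries alone and 0.15 without both, and leaving out 1 library gave -0.84 to -0.10, the last without 6% ethanol 2. The cause was not tested.

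Some log2 fold changes of single genes changed sign. In the long-header libraries alone these were Sugp1 (0.53), Nos1 (0.29), mt-Nd4 (0.21), mt-Rnr1 (0.22), Dppa4 (0.64) and Nanog (-0.27). Without both 6% ethanol 2 and 3 they were Sugp1 (0.35), Nos1 (0.54), mt-Nd4 (1.04), mt-Cytb (0.21), mt-Co1 (0.91), mt-Rnr1 (0.10), Dppa4 (0.92), Gata3 (-0.14), Xist (3.51), Nanog (-0.74) and Eif2s3y (0.15). Without 6% ethanol 2 they were Sugp1 (1.09), Map2k3 (0.31) and Cdx2 (-0.43), and without 6% ethanol 3 Nos1 (1.41) and Nanog (-0.025). Nanog was at -0.23 with the header form as a term, -0.18 in the short-header libraries alone and -0.30 without 10% ethanol 2. Cdx2 was at -1.14 with that term, -2.92 in the short-header libraries alone, -0.31 without 10% ethanol 1 and -0.22 without 10% ethanol 2. Leaving out 1 library at a time gave -6.52 to 1.09 for Sugp1, -5.07 to 1.41 for Nos1, -4.60 to 0.31 for Map2k3, -0.30 to 1.91 for Nanog and -0.43 to 0.91 for Cdx2. Of the tested genes, 10.7 percent had 0 counts in 6% ethanol 2, 6.07 percent in 6% ethanol 3 and 2.71 percent in 10% ethanol 3. For these genes the zeros limit what those libraries show. Total counts were 6263465, 10909921 and 8282411 in the same order, and the part of depth in the zeros was not tested.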
